A study of Mus musculus with 41 samples.

Results

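The comparison described here is between the effects of losing Pelo and of losing Hbs1l on ribosome footprints in mouse embryonic fibroblasts (MEFs). It uses 12 of the 41 samples of the series, namely 3 footprint libraries from each of 4 groups, and takes for every gene the change in Pelo-/- MEFs against the controls sequenced with them minus the change in Hbs1l-/- MEFs against theirs. The study profiled mutants of the ribosome rescue factors Hbs1l and Pelo and of the nonsense-mediated decay factor Upf2 in fibroblasts, embryos or cerebellum, by ribosome profiling and RNA sequencing. Fibroblasts of the first 2 genotypes are compared to ask how far the translatomes differ when the gene of each partner of 1 complex is deleted.

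The Pelo-/- cells are labelled CAG-Cre ER; Pelo cKO and the Hbs1l-/- cells CAG-Cre ER; Hbs1l cKO, and each control library comes from CAG-Cre ER cells with no floxed allele. All groups are C57BL/6 MEFs that are homozygous for the B6J allele of n-Tr20, an arginine tRNA gene, and carry a ubiquitous tamoxifen-inducible Cre, and all were treated with tamoxifen, so the drug and Cre activation are common to mutants and controls. The cells were primary cultures, each replicate made of pooled dishes from a single embryo whose sex was not determined. The Pelo-/- cells had both alleles floxed, whereas the Hbs1l-/- cells had 1 floxed and 1 germline null allele, so the latter had 1 copy of Hbs1l before tamoxifen. The study's methods place the floxed Pelo allele on B6J, and both Hbs1l alleles on B6N with 2 backcross generations to B6N mice carrying that n-Tr20 allele. The mutants may therefore differ in substrain (B6J or B6N) elsewhere in the genome, which cannot be told apart from the effect of the mutations. The 3 libraries of each mutant were sequenced in 1 pool with 3 control libraries, so each mutant was in a pool of its own.

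PELO and HBS1L form a complex related to the translation termination factors. It enters ribosomes with an empty A site, such as those stalled at the 3′ end of an mRNA, and with ABCE1 splits them into subunits. PELO is the subunit that reaches into the decoding centre, while HBS1L is the GTPase that delivers it. Footprints are the stretches of mRNA that a ribosome shields from nuclease, and their number on a coding sequence follows both the amount of mRNA and how densely it is translated.

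Each footprint library held 5922807 to 25607974 counts on coding sequences. The 3 Pelo-/- libraries were the deepest at 16704819 to 25607974 counts, and Hbs1l-/- replicate 2 was the shallowest. Control libraries with the same number in the 2 pools were close to what counting error alone would give: the chi-square per gene was 1.1 to 1.12 for them and 4.06 to 10.9 for control libraries with different numbers. They were counted as the same 3 control cultures, and levels of controls are given as the mean of each pair with n = 3. The test of 1 control pool against the other called 0 of 12526 genes in edgeR's quasi-likelihood test (75 at an unadjusted p below 0.05, and 0 adjusted calls with DESeq2). Since it sets the same cultures against the spread between cultures, it could hardly call a gene and says nothing about differences between the pools. The 15 fibroblast markers summed to 50004 to 56816 CPM (counts scaled by library size) over the 12 libraries, a sum carried mainly by Col1a1, Vim and Fn1. Single markers moved. At an adjusted p of at most 0.05 in the same edgeR test, 11 rose and 1 fell in Pelo-/-, and 8 rose and 1 fell in Hbs1l-/-. Y-linked footprints summed to 206 and 199 CPM in Pelo-/- replicates 1 and 2 and 204 and 212 CPM in the libraries of control culture 3, and to 2.27 CPM or less in the other 8 libraries, among them all 3 of Hbs1l-/-. The embryos thus differed in sex, and without the 4 libraries that carry Y-linked footprints 590 genes were called for the difference in place of 695, with 396 in common. That setting leaves 1 Pelo-/- library, assumed to vary like the other groups, and 2 control libraries a pool, so sex and the loss of libraries cannot be told apart in it.

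The targeted genes differed as labelled. Pelo (ENSMUSG00000042275.9, chr13:115088355-115090186, GRCm38) had 2.82, 2.98 and 2.00 CPM in the 3 Pelo-/- libraries and 33.3, 30.4 and 30.6 CPM in the Hbs1l-/- libraries, with 34.4, 37.3 and 30.0 CPM in the control cultures. Its difference of effects was -3.72 ± 0.19 on the log2 scale (SE, adjusted p = 4.99e-08, edgeR's quasi-likelihood test, Benjamini-Hochberg adjusted), or 13.2-fold lower. Hbs1l (ENSMUSG00000019977.16, chr10:21295979-21368898) had 2.58, 1.67 and 1.51 CPM in Hbs1l-/- and 28.5, 28.9 and 26.5 CPM in Pelo-/- libraries, against 36.7, 38.5 and 32.7 CPM in the control cultures. Its difference was 3.78 ± 0.20 (adjusted p = 4.99e-08, same test). No Pelo footprint change was called in the Hbs1l-/- cells (-0.06 ± 0.12, adjusted p = 0.742), whereas Hbs1l footprints fell in the Pelo-/- cells by 0.37 ± 0.11 on the log2 scale (adjusted p = 0.011). Footprints do not measure protein: on western blots the study found less PELO in Hbs1l-/- MEFs and a loss of HBS1L in Pelo-/- MEFs. Among the 26 tested ribosome rescue and quality control genes, 24 were not called and the targets were the 2 that were, where 5.55% of all tested genes were called. Alternatives called further members, with 3 lower in place of 1 under DESeq2, the replicate block and the control culture term, and 3 higher and 6 lower when the mutants were compared directly. Over all genes these settings called 349, 407, 476 and 761 lower. The direct comparison called 1189 higher, of 12479 genes tested there.

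Of 12526 tested genes, 695 (5.55%) had a difference of effects at an adjusted p of at most 0.05 in edgeR's quasi-likelihood test, and such genes are called here. Of these, 432 (3.45%) were higher in Pelo-/- and 263 (2.1%) were lower, each relative to its own controls. The effect of each mutation against its controls was called for many more genes, 5788 (46.2%) for Pelo and 4227 (33.7%) for Hbs1l. Both sets of controls are the same cultures, so only side-by-side values of the 2 effects are given. The genes called higher differed by more: their median difference was 1.16 on the log2 scale, against -0.51 for those called lower, and 253 of the former and 36 of the latter differed by at least 1. The calls rested on the controls in part. Without control replicate 1 in both pools 196 genes were called, and without it in either pool alone 384. Without Hbs1l-/- replicate 3 it was 416. The fit takes same-numbered controls as separate libraries, and with a term for the control culture 1065 genes were called (589 higher, 476 lower). With the mutants compared directly it was 1950 (1189 higher, 761 lower). All 695 had Pelo-/- and Hbs1l-/- libraries that did not overlap once set against their controls, as had 37.4% of tested genes.

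**Figure D1:**
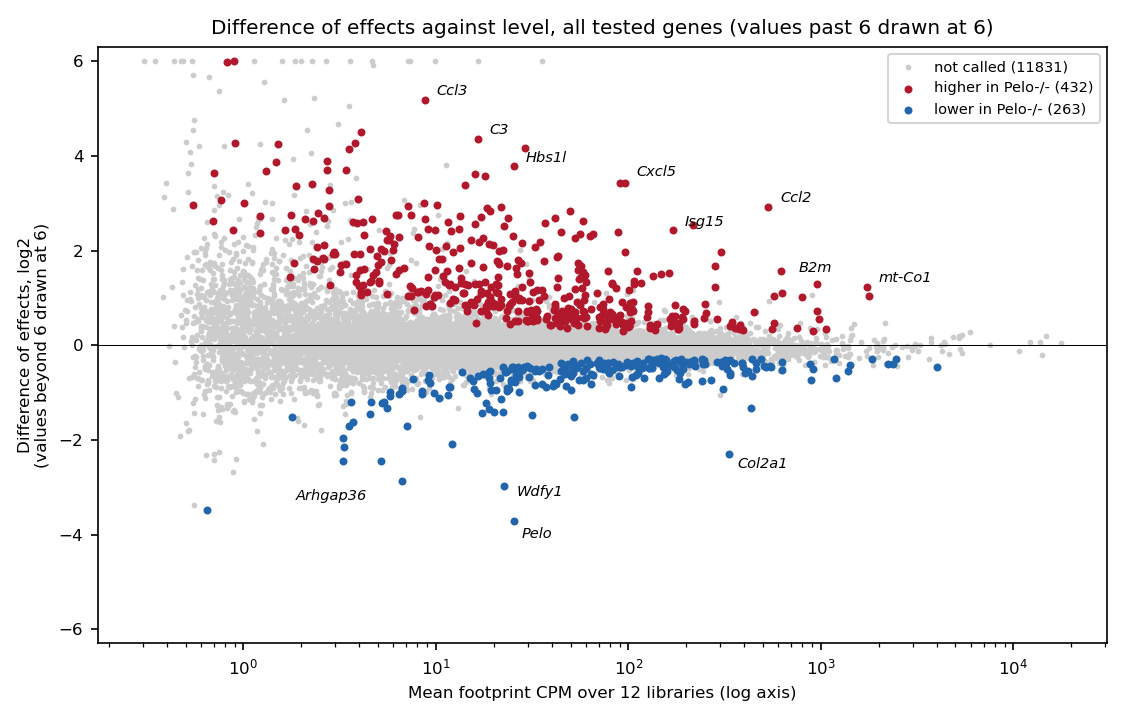
Difference of effects on the log2 scale (Pelo-/- effect minus Hbs1l-/- effect, vertical axis) against the mean footprint CPM over 12 libraries (horizontal log axis) for 12526 tested genes, with called genes coloured. Values beyond 6 are drawn at 6. Genes called higher reach above 5, while the 263 called lower mostly lie within 1 of the zero line.

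The called genes were also split by the separate effects, a split that is fixed in part because the genes were chosen by their difference. Of the 432 called higher, 204 rose in Pelo-/- with no call in Hbs1l-/-, 176 rose in both and 18 rose in Pelo-/- but fell in Hbs1l-/-. A further 28 fell in Hbs1l-/- with no call in Pelo-/-, and 6 fell in both. Of the 263 called lower, 112 fell in Pelo-/- with no call in Hbs1l-/-, 110 fell in both and 6 fell in Pelo-/- but rose in Hbs1l-/-. Another 31 rose in Hbs1l-/- with no call in Pelo-/-, 3 rose in both and 1 had neither effect called. Absence of a call in 1 mutant does not show that the gene was unchanged there.

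Several lists of innate immune genes held members called for the difference. Type I interferons act on genes whose promoters carry the interferon-stimulated response element (ISRE), and sensors of foreign or misplaced RNA such as the RIG-I family induce interferon in fibroblasts. A second set of promoters, of chemokines, cytokines and inhibitors of the pathway itself, carries kappaB sites bound by NF-kB. Sites from promoters of called genes are shown first, since the data bear on these genes. They come from RefSeq windows of 250 bases before to 50 bases after annotated starts (GRCm38.p6). The ISRE was searched on both strands as GAAA, any 2 bases and again GAAA, and the genes shown are the 6 with the largest difference among called interferon list members of at least 5 CPM that hold it, capitals marking the match (TTTC, any 2 bases and TTTC where it lies on the other strand).
Ifit3: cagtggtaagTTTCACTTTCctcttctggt
Trim30a: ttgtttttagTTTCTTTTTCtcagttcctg
Gbp3: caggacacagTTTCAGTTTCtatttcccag
Oas3: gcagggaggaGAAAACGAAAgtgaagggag
Oas1a: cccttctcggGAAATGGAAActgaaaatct
Igtp: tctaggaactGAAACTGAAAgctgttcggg

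These stretches lie at chr19:34583363-34583392 (Ifit3), chr7:104446104-104446133 (Trim30a), chr3:142559989-142560018 (Gbp3), chr5:120777715-120777744 (Oas3), chr5:120907526-120907555 (Oas1a) and chr11:58199512-58199541 (Igtp). They are printed 5′ to 3′ on the strand of the gene, and the match starts from 156 bases before the start (Ifit3) to the base numbered 3 after it (Trim30a). A promoter window was matched by symbol to 9912 of the 12526 tested genes, and 3.7% of those genes held the motif. It was present for 21 of 48 called members of 4 interferon-related lists (43.8%) and for 12 of 27 tested members not called (44.4%). Among the 260 other genes called higher that have a window and are in no immune list, 32 held it (12.3%), and among the 203 called lower, 5 did (2.46%). All promoter windows of the table, 32851 in number, held it in 3.44% of cases. A match is only these letters in this window.

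Most antiviral interferon-stimulated genes rose in both mutants, and a part of them was called higher in Pelo-/- than in Hbs1l-/- MEFs. Of 37 tested members of a list of 40, 24 were called higher, 0 lower and 13 not, against 3.45% and 2.1% of all genes called higher and lower. The median difference was 2.31 on the log2 scale, against -0.00 for all tested genes. The median change was 5.71 in Pelo-/-, where 36 members rose (23.9% of all tested genes did), and 3.22 in Hbs1l-/-, where 35 rose (17.3% did). Their summed level was 4245 to 5849 CPM in the Pelo-/- libraries, 1261 to 1887 CPM in the Hbs1l-/- libraries and 381 to 594 CPM in the control libraries. The groups did not overlap. The number of members called fell from 24 to 4 without control replicate 1 in both pools, to 10 without replicate 3 of the controls in the Hbs1l pool and to 15 with all libraries thinned to the smallest total.

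Isg15 (ENSMUSG00000035692.7, chr4:156199424-156200818), a ubiquitin-like modifier, had 560.5, 449.1 and 686.9 CPM in the Pelo-/- libraries. It had 90.6, 142.3 and 60.9 CPM in the Hbs1l-/- libraries and 7.44, 4.25 and 12 CPM in the control cultures. Both mutants thus lay above every control and Pelo-/- lay above Hbs1l-/-, with a difference of 2.43 ± 0.54 (SE, adjusted p = 0.0174, edgeR's quasi-likelihood test). Isg15 was chosen for its level after the values were seen. Ifit3, an inhibitor of viral RNA translation, had 47.5, 30.3 and 73.0 CPM in Pelo-/-, 7.13, 4.34 and 3.20 CPM in Hbs1l-/- and 0.742, 0.513 and 1.25 CPM in control cultures. Its difference was 3.38 ± 0.87 (adjusted p = 0.0359, same test), the largest of the list. The ubiquitin ligase gene Trim30a (2.97) and the 2′-5′ oligoadenylate synthetase genes Oas3 (2.74) and Oas1a (2.72) followed. Ifit3, Trim30a and the Oas genes have close relatives among which short footprints can be ambiguous, so their values carry that uncertainty.

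Genes that sense RNA and relay the interferon signal were a second list. Of 27 tested members, 11 were called higher and 0 lower, against 3.45% and 2.1% of all genes, with a median difference of 1.19. The called members with the largest differences were Ifi204 (2.57), a DNA-binding innate sensor, Irf7 (2.26), the factor that amplifies interferon transcription, Ifih1 (1.58), the sensor MDA5, and Stat2 (1.54). Ifih1 had 153.1, 128.4 and 172.9 CPM in Pelo-/-, 53.7, 53.9 and 39.3 CPM in Hbs1l-/- and 8.53, 7.43 and 11.1 CPM in control cultures, with no overlap between any of the groups. Ddx58, the sensor RIG-I, named after its value was seen, differed by 1.31 ± 0.17 (adjusted p = 0.000419, edgeR's quasi-likelihood test). Of the 12 tested interferon-induced GTPases, which act against intracellular pathogens, 7 were called higher, led by Gbp3 (2.91), Igtp (2.69), Gbp2 (2.18) and Gbp7 (2.18), and the median difference was 2.18. Members of the Gbp family share sequence, with the same uncertainty. Leaving 1 control culture out of both pools brought the calls down to 5 sensors and 4 GTPases at the lowest.

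MHC class I antigen presentation was called higher for 12 of 21 genes and lower for 0, against 3.45% and 2.1% of all genes. The median difference was 1.65. In this list all 21 members rose in Pelo-/- and 12 rose in Hbs1l-/-. Among called members the largest differences were those of the class I heavy chain genes H2-Q4 (2.92), H2-K1 (2.84) and H2-D1 (2.30), which are near-identical in part, and of Psmb8 (2.83), a catalytic subunit of the immunoproteasome. H2-K1 had 164.2, 146.0 and 167.5 CPM in Pelo-/-, 24.7, 29.9 and 14.2 CPM in Hbs1l-/- and 7.65, 6.67 and 9.37 CPM in control cultures. B2m (ENSMUSG00000060802.8, chr2:122147686-122153083), the light chain shared by all class I molecules, had 1777, 1818 and 1606 CPM in Pelo-/-, 767.1, 681.1 and 666.2 CPM in Hbs1l-/- and 702.1, 692.0 and 669.9 CPM in control cultures. The Hbs1l-/- libraries therefore lay around the control level, with an effect of 0.04 ± 0.07 (adjusted p = 0.689), and the difference of effects was 1.29 ± 0.09 (adjusted p = 2.34e-06, same test). B2m too was chosen after its values were seen.

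**Figure D2:**
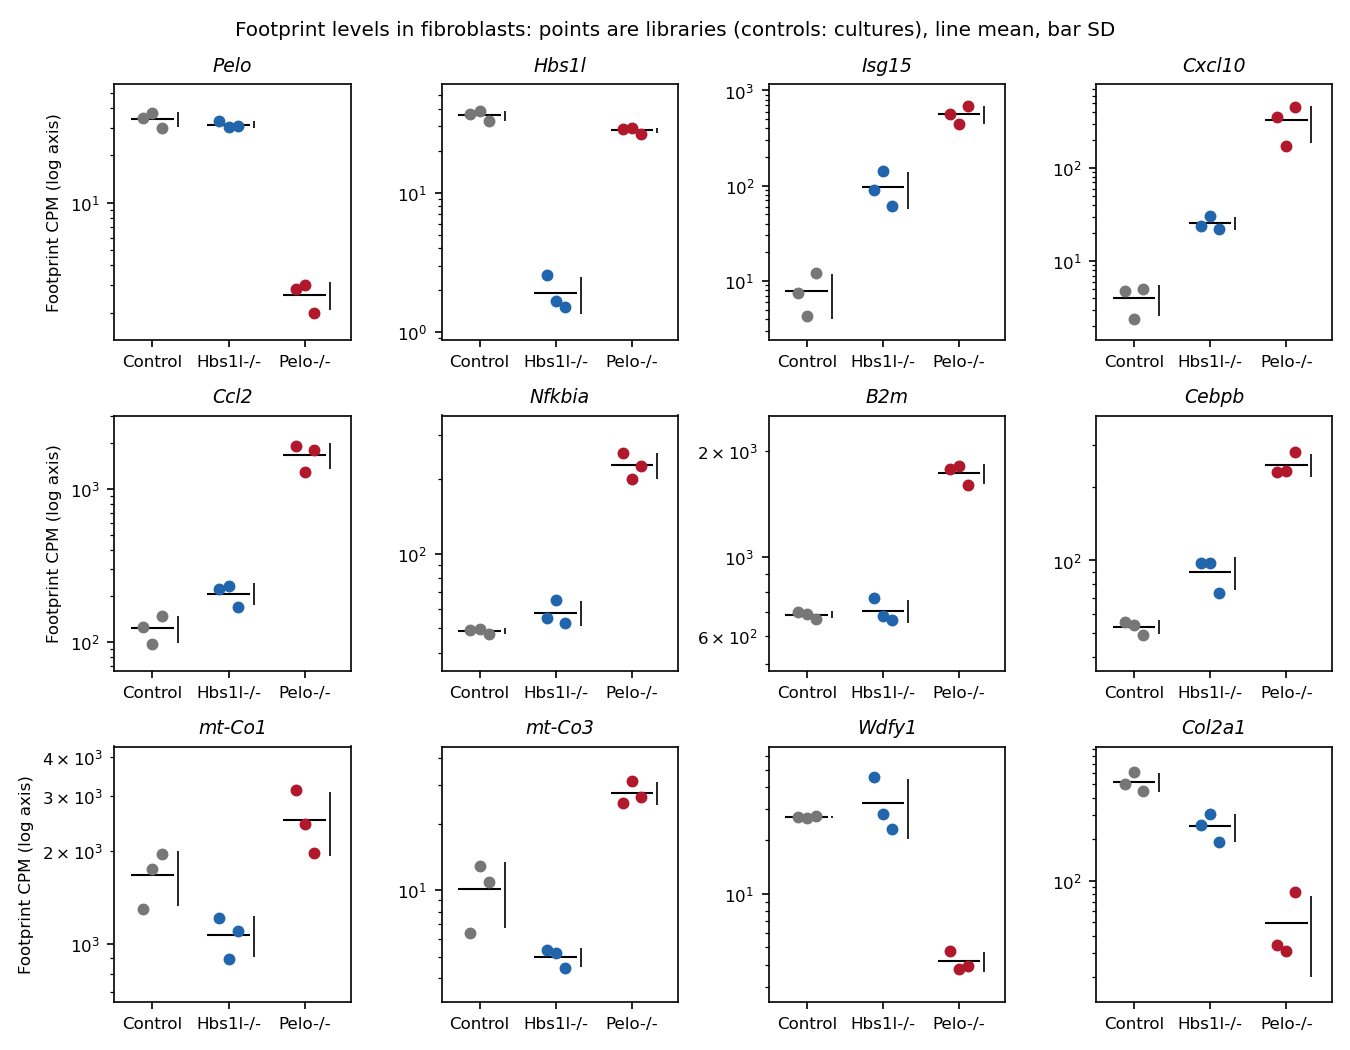
Footprint CPM (log axis) of 12 genes, with 1 point for each Pelo-/- and Hbs1l-/- library and each control culture, lines for means and bars for SD. Pelo-/- lies above Hbs1l-/- for Hbs1l and for the immune, Cebpb and mitochondrial genes and below it for Pelo, Wdfy1 and Col2a1, and Hbs1l-/- is near the controls for B2m and Nfkbia.

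About as many chemokine and cytokine genes were called higher in Pelo-/- as were not called. Of 29 tested members, 14 were called higher, 0 lower and 15 not, against 3.45% and 2.1% of all genes called higher and lower. In Pelo-/- 25 members rose, and in Hbs1l-/- 10 rose. Leaving 1 control culture out of both pools left 8 calls at the lowest. Csf3, the gene of granulocyte colony-stimulating factor, had the largest difference among called members (5.98), but this value is inexact. It had 77, 32 and 61 counts in Pelo-/- (4.61 CPM or less) and at most 2 counts in every other library. It could thus pass the count filter only through Pelo-/-, so no median of this list is given. The call of Csf3 was lost in 10 of 24 alternatives. The chemokine genes Ccl20 (3.62), Cxcl1 (3.57), Cxcl10 (3.43) and Cxcl5 (3.43) followed. Cxcl10 (chr5:92346638-92348889) had 356.0, 174.6 and 450.3 CPM in Pelo-/-, 23.9, 30.2 and 22.4 CPM in Hbs1l-/- and 4.77, 2.38 and 5.04 CPM in control cultures. Its difference was 3.43 ± 0.63, 10.8-fold (adjusted p = 0.00496, edgeR's quasi-likelihood test). Ccl3, which is not on this list, had the largest difference among called genes of at least 5 CPM, 5.19 ± 0.80 (adjusted p = 0.00167, same test). It had 48.4, 27.1 and 23.1 CPM in Pelo-/- and 0.769, 1.17 and 1.51 CPM in Hbs1l-/-, against 0.505 to 0.612 CPM in control cultures. With at most 17 counts in any other library, Ccl3 passed the count filter and the level of 5 CPM only through Pelo-/-. Ccl2, the main chemoattractant of monocytes, chosen after its values were seen, had 1910, 1299 and 1818 CPM in Pelo-/-, 222.9, 232.8 and 169.1 CPM in Hbs1l-/- and 125.4, 97.6 and 148.0 CPM in control cultures, a difference of 2.93 ± 0.26 (adjusted p = 1.44e-05).

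Of 28 tested NF-kB factors and targets 18 were called higher, 0 lower and 10 not, against 3.45% and 2.1% of all genes called higher and lower. The median difference was 0.99, and the largest in the list, 8.39, was that of a member not called. In Pelo-/- 22 members rose and 2 fell, and in Hbs1l-/- 10 rose and 3 fell. The complement gene C3 led the called members (4.36), with 45.8, 52.8 and 79.7 CPM in Pelo-/-, 4.68, 4.00 and 2.13 CPM in Hbs1l-/- and 1.88, 1.29 and 1.29 CPM in control cultures. The matrix metalloproteinase genes Mmp3 (2.71) and Mmp13 (2.29) and Bcl3 (2.15), which encodes an atypical IkB protein, followed. Nfkbia, whose product IkB-alpha holds NF-kB in the cytoplasm and is itself an NF-kB target, had 255.3, 200.9 and 226.2 CPM in Pelo-/- and 55.3, 65.2 and 52.5 CPM in Hbs1l-/-. With 49.3, 49.7 and 47.5 CPM in control cultures, its Hbs1l effect was 0.25 ± 0.09 (adjusted p = 0.0584) and its difference of effects 1.96 ± 0.13 (adjusted p = 1.04e-06, edgeR's quasi-likelihood test). Mmp12, which is on neither list, was also among the largest differences (3.01). Nfkbia was chosen after its values were seen.

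A kappaB site was searched on both strands of the same promoter windows as GGGA, any base and TTTCC. Of the called members of the chemokine and NF-kB lists with at least 5 CPM, 5 held it, and all are shown, with the match in capitals.
Cxcl1: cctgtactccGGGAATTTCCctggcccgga
Il6: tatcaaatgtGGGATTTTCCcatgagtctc
Nfkbia: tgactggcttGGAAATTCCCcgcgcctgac
Csf1: gggccttgagGGAAAGTCCCtaggggccag
Nfkb2: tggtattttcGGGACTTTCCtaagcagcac

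They lie at chr5:90891164-90891193 (Cxcl1), chr5:30013060-30013089 (Il6), chr12:55492657-55492686 (Nfkbia), chr3:107760604-107760633 (Csf1) and chr19:46305695-46305724 (Nfkb2) in GRCm38.p6. With a window found for 21 called members of these lists, the share with a match was 23.8%, against 4.35% of 23 members not called and 0.474% of tested genes. Of all windows, 0.411% held it. None of the 203 genes called lower with a window did.

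Markers of macrophages and leukocytes moved with these immune lists. The 20 markers summed to 659 to 942 CPM in the Pelo-/- libraries, 339 to 466 CPM in the Hbs1l-/- libraries and 192 to 259 CPM in the control libraries. Of 19 tested, all rose in Pelo-/- and 14 rose in Hbs1l-/-, while 6 were called for the difference, all higher in Pelo-/-: Cd14 (1.99), Adgre1 (1.52), Lyz2 (1.35), Cd53 (1.13), Cd68 (0.83) and C1qb (0.72). Adgre1, which encodes the macrophage surface receptor F4/80, had 93.8, 61.1 and 64.7 CPM in Pelo-/-, 27.4, 31.5 and 18.6 CPM in Hbs1l-/- and 8.28 to 14 CPM in control cultures. Of all tested genes 3.45% were called higher and 2.1% lower. Leaving out 1 library or 1 control culture left 2 of the 6 calls at the lowest. Each of the 20 markers except Itgam was detected in all 12 libraries. The part of macrophages in the immune differences was not tested, and in these bulk libraries more cells of a type cannot be told apart from more RNA or translation per cell.

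Some markers of other cell types were also higher in the Pelo-/- libraries, mostly without passing the test. Krt5, a keratin of basal epithelium, had 1.92, 25.2 and 8 CPM in Pelo-/- and 0.28 CPM or less in Hbs1l-/-, and Krt14 had 3.95, 24.2 and 9.43 CPM against 0.888 to 1.5 CPM. Of 12 tested epithelial markers 0 were called higher and 1 lower (Krt19, -0.66), against 3.45% and 2.1% of all genes. Krt5, with at most 7 counts in any other library, could pass the count filter only through Pelo-/-, so no median is given. The list of 20 summed to 127 to 219 CPM in Pelo-/-, 151 to 170 CPM in Hbs1l-/- and 169 to 241 CPM in control libraries. The adipocyte genes Adipoq and Plin1 had 1.26 to 7.01 and 0.659 to 5.18 CPM in Pelo-/- and no count in Hbs1l-/-. Of 10 tested adipocyte and mesothelial markers 1 was called higher (Cebpa, 1.14), and that call was lost without control replicate 2 in both pools. Adipoq, with at most 1 count in any other library, could pass the count filter only through Pelo-/-. The list of 12 summed to 137 to 195 CPM in Pelo-/-, 79.2 to 123 CPM in Hbs1l-/- and 66.6 to 77.7 CPM in control libraries. Compared directly, the mutants had 6 adipocyte and mesothelial markers higher and 0 lower, and 6 epithelial markers higher and 1 lower. Over all genes that setting called 1189 higher and 761 lower of 12479 tested. Krt5, Krt14, Adipoq and Plin1 were picked out after their values were seen, and the part of such cells in other differences was not tested.

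The polyadenylated RNA of the same genotypes, sequenced in a batch of its own with 2 Pelo-/-, 3 Hbs1l-/- and 3 control libraries, did not show the same order for the interferon-stimulated genes. In RNA 5354 of 15190 tested genes (35.2%) differed between Pelo-/- and Hbs1l-/- at an adjusted p of 0.05. Of the 37 antiviral members tested, 35 (against 16.8% of all genes) were lower in Pelo-/- RNA than in Hbs1l-/- RNA and 0 higher. The summed RNA level of that list was 225 and 194 CPM in the 2 Pelo-/- libraries, 791 to 1216 CPM in Hbs1l-/- and 221 to 329 CPM in controls, so the Pelo-/- RNA libraries lay within or below the range of the controls. Isg15 RNA was at 2.75 and 1.93 CPM in Pelo-/-, 38.1 to 78.4 CPM in Hbs1l-/- and 2.65 to 4.43 CPM in controls. Ccl2 RNA was at 11.7 and 13.0 CPM in Pelo-/-, 38 to 53.6 CPM in Hbs1l-/- and 22.5 to 34.6 CPM in controls, and B2m RNA did not pass the test (-0.16, adjusted p = 0.243, edgeR's quasi-likelihood test). The chemokine list summed to 1046 and 1133 CPM in Pelo-/- RNA, 898 to 1050 CPM in Hbs1l-/- and 734 to 894 CPM in controls. The NF-kB list summed to 907 and 810, 698 to 715 and 664 to 755 CPM. Of 22 chemokine list members tested in RNA 4 were higher in Pelo-/- and 10 lower, and of 27 NF-kB list members 4 and 7. Macrophage markers summed to 244 and 166 CPM in Pelo-/- RNA, 236 to 322 CPM in Hbs1l-/- RNA and 125 to 186 CPM in control RNA. Pelo RNA itself was at 0.557 and 0.0879 CPM in the Pelo-/- libraries against 23.7 to 30.7 CPM in the others, as labelled. Across the genes called higher in footprints, 43 of 422 tested were higher in Pelo-/- RNA and 158 were lower, where 18.4% and 16.8% of all genes tested in RNA were called higher and lower. For those called lower, 100 of 261 were higher and 29 lower. Y-linked RNA was at 26.7 CPM in Pelo-/- replicate 1 and 56.7 CPM in control replicate 3 and at 0.465 CPM or less elsewhere, so the Pelo-/- samples numbered 2 of the 2 readouts came from embryos of different sex. The part of different embryos in the gap between RNA and footprints was not tested.

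The mRNAs encoded by mitochondrial DNA, translated by the separate ribosomes of that organelle, were in part called for the difference. Of the 13, 9 were called higher, 0 lower and 4 not, with a median of 1.22, and 5 were called without the libraries that carry Y-linked footprints, which leaves 1 Pelo-/- library. The median change was 0.59 in Pelo-/-, where 7 rose and 0 fell, and -0.77 in Hbs1l-/-, where 0 rose and 9 fell, and in 4 genes both effects were called, in opposite directions. The sum over the 13 was 6293 to 9961 CPM in Pelo-/-, 2941 to 4212 CPM in Hbs1l-/- and 4945 to 7342 CPM in control libraries, so Pelo-/- overlapped the controls and Hbs1l-/- lay below them. mt-Co1, the catalytic subunit of cytochrome c oxidase, had 3130, 2434 and 1964 CPM in Pelo-/-, 1216, 898.0 and 1102 CPM in Hbs1l-/- and 1294, 1748 and 1950 CPM in control cultures. It rose by 0.60 ± 0.18 in Pelo-/- (adjusted p = 0.0145) and fell by 0.64 ± 0.18 in Hbs1l-/- (adjusted p = 0.0149), a difference of 1.23 ± 0.26 (adjusted p = 0.0123, edgeR's quasi-likelihood test).

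Larger differences were measured for mt-Nd3 (3.09), mt-Co3 (2.45), mt-Co2 (2.22) and mt-Atp6 (2.1), whose footprints were few. mt-Co3 had 25, 31.4 and 26.6 CPM in Pelo-/-, 5.38, 5.17 and 4.44 CPM in Hbs1l-/- and 6.38, 12.9 and 11 CPM in control cultures. Nuclear copies of stretches of the mitochondrial genome exist in this strain, and reads that match both places can be lost in counting, so the levels of such genes are uncertain. In RNA 7 of the 13 were higher in Pelo-/- than in Hbs1l-/- and 0 were lower, against 18.4% and 16.8% of all genes. mt-Co1 RNA was at 2906 and 3273 CPM in Pelo-/-, 1171 to 1438 CPM in Hbs1l-/- and 1438 to 2170 CPM in controls. Of 72 tested subunits of oxidative phosphorylation encoded in the nucleus, 3 were called higher and 1 lower, against 3.45% and 2.1% of all genes. Their median difference was 0.08. The higher calls fell to 0 without control replicate 1 of the Hbs1l pool, and the lower call was lost without Hbs1l-/- replicate 1. Compared directly, the mutants had 15 of these subunits higher and 1 lower. Of 66 mitochondrial ribosomal proteins none was called at a median of 0.11. With the replicate block or the control culture term 2 of them were higher and 0 lower, and in the direct comparison 7 and 0. Over all genes these settings called 540, 589 and 1189 higher and 407, 476 and 761 lower, of 12526, 12526 and 12479 tested.

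**Figure D3:**
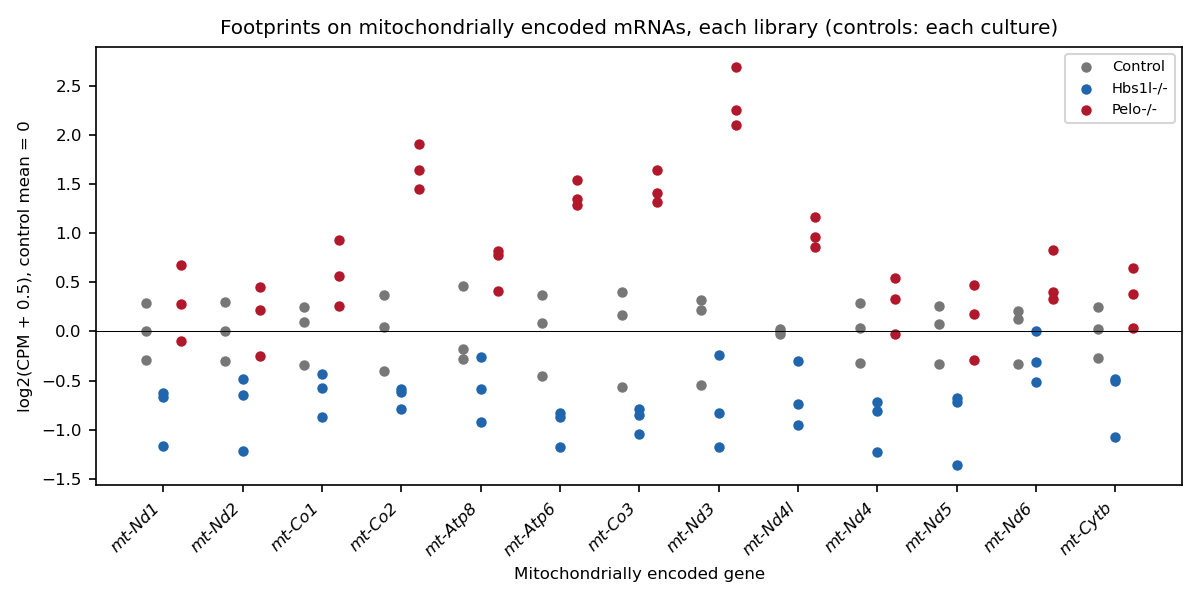
Footprints on the 13 mitochondrially encoded mRNAs as log2(CPM + 0.5) relative to the mean of the control cultures, with 1 point for each library or control culture. Hbs1l-/- points lie below the control mean, except 1 of mt-Nd6 that lies at it, and all 3 Pelo-/- points lie above the control points for mt-Co1, mt-Co2, mt-Atp6, mt-Co3, mt-Nd3, mt-Nd4l and mt-Nd6.

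Some ribosomal protein genes were called higher in Pelo-/-. Of 45 tested genes of the large subunit 8 were called higher and 0 lower with a median difference of 0.52. Of 31 of the small subunit 6 were called higher and 0 lower with a median of 0.30, against 3.45% and 2.1% of all genes. Leaving 1 control culture out of both pools left 2 and 1 of these calls at the lowest. The called members with the largest differences were Rpl27a (4.16), Rpl10 (1.63), Rpl10a (1.1) and Rpl12 (1.07), and Rps16 (2.94), Rps25 (1.33), Fau (0.88) and Rps2 (0.55). Rpl27a had 85.9, 126.5 and 83.3 CPM in Pelo-/-, 4.54, 12.8 and 4.62 CPM in Hbs1l-/- and 4.06 to 6.07 CPM in control cultures. Its RNA was at 333.2 and 387.6 CPM in Pelo-/- and 408.4 to 420.5 CPM in Hbs1l-/-, a difference that did not pass the test (-0.20, adjusted p = 0.157, edgeR's quasi-likelihood test). Ribosomal protein genes have many processed pseudogenes that share reads with them, and Rpl27a and Rps16 in particular are reported as uncertain. Unlike footprints, RNA of this class was lower in Pelo-/- than in Hbs1l-/-, with 28 of 31 small subunit and 31 of 45 large subunit genes called lower and 0 higher.

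Targets of ATF4 and the integrated stress response, which cells induce when initiation factor eIF2 is phosphorylated, were partly called. Of 33, 7 were called higher and 0 lower, against 3.45% and 2.1% of all genes, with a median difference of 0.37. They were the transcription factor genes Cebpb (1.56) and Atf5 (1.21), the cystine transporter gene Slc7a11 (1.1), the cysteine synthesis gene Cth (0.91), Nupr1 (0.52), Eif4ebp1 (0.50) and Slc3a2 (0.37). Of these Nupr1 fell in both mutants, and by less in Pelo-/-. Cebpb (chr2:167688915-167690418) had 230.9, 233.6 and 279.4 CPM in Pelo-/-, 98.0, 97.4 and 73.3 CPM in Hbs1l-/- and 56.0, 54.2 and 49.4 CPM in control cultures, a difference of 1.56 ± 0.16 (adjusted p = 5.14e-05, edgeR's quasi-likelihood test). It is also induced in acute inflammation. Atf4 itself (0.48 ± 0.19, adjusted p = 0.174), Ddit3 (0.06 ± 0.19, adjusted p = 0.914), Trib3 (0.77 ± 0.30, adjusted p = 0.174) and Chac1 (0.55 ± 0.23, adjusted p = 0.192), singled out after the fact as classical members, were not called. Without control replicate 1 in both pools, the list's count fell from 7 to 1.

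Among the genes called lower in Pelo-/- were 3 collagens, while endothelial markers were mixed. Col2a1 (ENSMUSG00000022483.17, chr15:97975602-98004695), the main fibrillar collagen of cartilage, had 33.9, 30.8 and 82.2 CPM in Pelo-/-, 252.7, 305.7 and 190.7 CPM in Hbs1l-/- and 500.1, 610.6 and 449.5 CPM in control cultures. Both mutants lay below the controls and Pelo-/- lay lowest, with a difference of -2.29 ± 0.39 (adjusted p = 0.00325, edgeR's quasi-likelihood test). Its RNA ran the other way, at 216.6 and 247.6 CPM in Pelo-/- and 80.0 to 150.9 CPM in Hbs1l-/- (1.04, adjusted p = 0.00639). Col10a1 (-1.42) and Col11a1 (-1.32) were also called lower. Of 35 tested collagens 3 were called lower and 2 higher, against 2.1% and 3.45% of all genes. The latter were the basement membrane genes Col15a1 (1.16) and Col18a1 (0.71). Without control replicate 1 of the Pelo pool or of both pools, 0 higher calls were left. Just 1 was left without Pelo-/- replicate 1 or control replicate 1 or 2 of the Hbs1l pool. The same held without control replicate 3 of the Pelo pool, or replicate 2 or 3 of both. The cartilage list as a whole had 2 of 17 genes called lower, both of them collagens, with a median of -0.33. Of 14 tested endothelial markers 0 were called higher and 3 lower, namely Emcn (-2.08), Ptprb (-1.06) and Kdr (-0.81), of which 1 call was left without Hbs1l-/- replicate 3 and 1 without control replicate 1 or 2 in both pools. The list's median was -0.29, and 5 of the 14 had a positive difference. Cdh5, the gene of VE-cadherin, had 2.58, 4.51 and 4.19 CPM in Pelo-/-, 0.699, 1.17 and 0.444 CPM in Hbs1l-/- and 0.244 to 0.792 CPM in control libraries, but its difference (1.95) was not called. Pecam1, Plvap and Cldn5 were likewise highest in the 3 Pelo-/- libraries, at levels of 1.86 CPM or less. Emcn, which encodes endomucin, had 0.599, 1.89 and 0.616 CPM in Pelo-/-, 3.35, 2.50 and 5.77 CPM in Hbs1l-/- and 19.6 to 23.3 CPM in control cultures. The sum over 25 endothelial markers was 400 to 422 CPM in Pelo-/-, 440 to 462 CPM in Hbs1l-/- and 485 to 566 CPM in control libraries.

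Other matrix genes split. Of 57, 7 were called higher and 3 lower with a median of 0.01, against 3.45% and 2.1% of all genes called higher and lower. Without control replicate 1 in both pools 2 higher calls were left. There were 3 left without replicate 2 or 3 in both, replicate 1 in either pool, or replicate 2 of the Pelo pool. The same number was left without replicate 3 of the Hbs1l pool or Hbs1l-/- replicate 3, and 4 without Pelo-/- replicate 1. Tnn, encoding tenascin N, had 184.2, 165.4 and 140.8 CPM in Pelo-/-, 37.8, 27.5 and 29.1 CPM in Hbs1l-/- and 7.27 to 8.61 CPM in control cultures (2.27 ± 0.21, adjusted p = 2.29e-05, edgeR's quasi-likelihood test). The small proteoglycan genes Lum (1.68) and Dcn (1.1) and the microfibril gene Mfap5 (0.85) followed. Lower were Efemp1 (-0.76), Fbln5 (-0.70) and Nid2 (-0.55). Fbln5, which encodes an elastic fibre protein, had 703.2, 723.0 and 679.7 CPM in Pelo-/-, 1147, 1148 and 1154 CPM in Hbs1l-/- and 1386 to 1536 CPM in control cultures, so the 3 groups were separate. Called lower in the IGF list were the receptor gene Igf2r (-0.55), the adaptor genes Irs1 (-0.48) and Grb10 (-0.43) and the RNA-binding protein gene Igf2bp3 (-0.44), 4 of 17 tested, and Igfbp4 (0.72) was called higher. The list's median was -0.02. Of 35 tested genes of the TGF-beta and BMP list 29 were not called, 3 were called higher and 3 lower, against 3.45% and 2.1% of all genes, with a median of -0.05. Those called higher included Tgfbr3 (1.24) and Inhbb (1.04), and Tgfb2 (-0.66), Bmp4 (-0.58) and Fst (-0.31) were called lower. In the IGF list 2 lower calls were left without Pelo-/- replicate 1, control replicate 1 or 3 of the Hbs1l pool, replicate 2 of the Pelo pool, or replicate 1 or 3 of both, and the last 2 of these settings also left 0 higher calls. In the TGF-beta and BMP list 0 lower calls were left without control replicate 1 or 3 of both pools, and 1 without any single Hbs1l-/- library, Pelo-/- replicate 2, replicate 1 or 3 of the Hbs1l pool, replicate 1 or 2 of the Pelo pool, or replicate 2 of both. Its higher calls numbered 1 without control replicate 1 of both pools. Fst is also a neighbour of Pelo on chromosome 13.

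The largest negative difference after Pelo itself was that of Wdfy1 (ENSMUSG00000073643.11, chr1:79702262-79776143), which encodes an endosomal adaptor of Toll-like receptor signalling. It had 4.79, 3.78 and 3.93 CPM in Pelo-/-, 45.8, 28.2 and 23.1 CPM in Hbs1l-/- and 27.0, 26.9 and 27.5 CPM in control cultures. The 3 Pelo-/- libraries lay far below all others, and the difference was -2.98 ± 0.28 (adjusted p = 2.66e-05, edgeR's quasi-likelihood test). In RNA it was at 13.5 and 13.4 CPM in Pelo-/- against 44.6 to 68.1 CPM in the other libraries. Wdfy1 is on a list of 8 genes known to differ between the B6J and B6N substrains, of which Ide (0.55) was called higher and 4 had no count in any of the 12 libraries. Substrain background and mutation cannot be told apart in these groups. Further large negative differences were measured for Arhgap36 (-2.88), Sprr3 (-2.44), Dusp27 (-1.71), Rgs5 (-1.52), Myom1 (-1.47), Krt20 (-1.43) and Cdh10 (-1.41), all of which fell in both mutants and further in Pelo-/-. Over 24 alternatives Arhgap36 and Sprr3 lost the call in 0, Cdh10 in 1, Myom1 in 2 and Dusp27 in 3, whereas Rgs5 (adjusted p = 0.0285, edgeR's quasi-likelihood test) lost it in 11 and Krt20 (adjusted p = 0.0418) in 14, DESeq2 among them for both. Rgs5, a pericyte gene, had 3.18, 9.81 and 4.39 CPM in Pelo-/-, 14, 15 and 21.9 CPM in Hbs1l-/- and 81.9 to 110.1 CPM in control cultures.

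**Figure D4:**
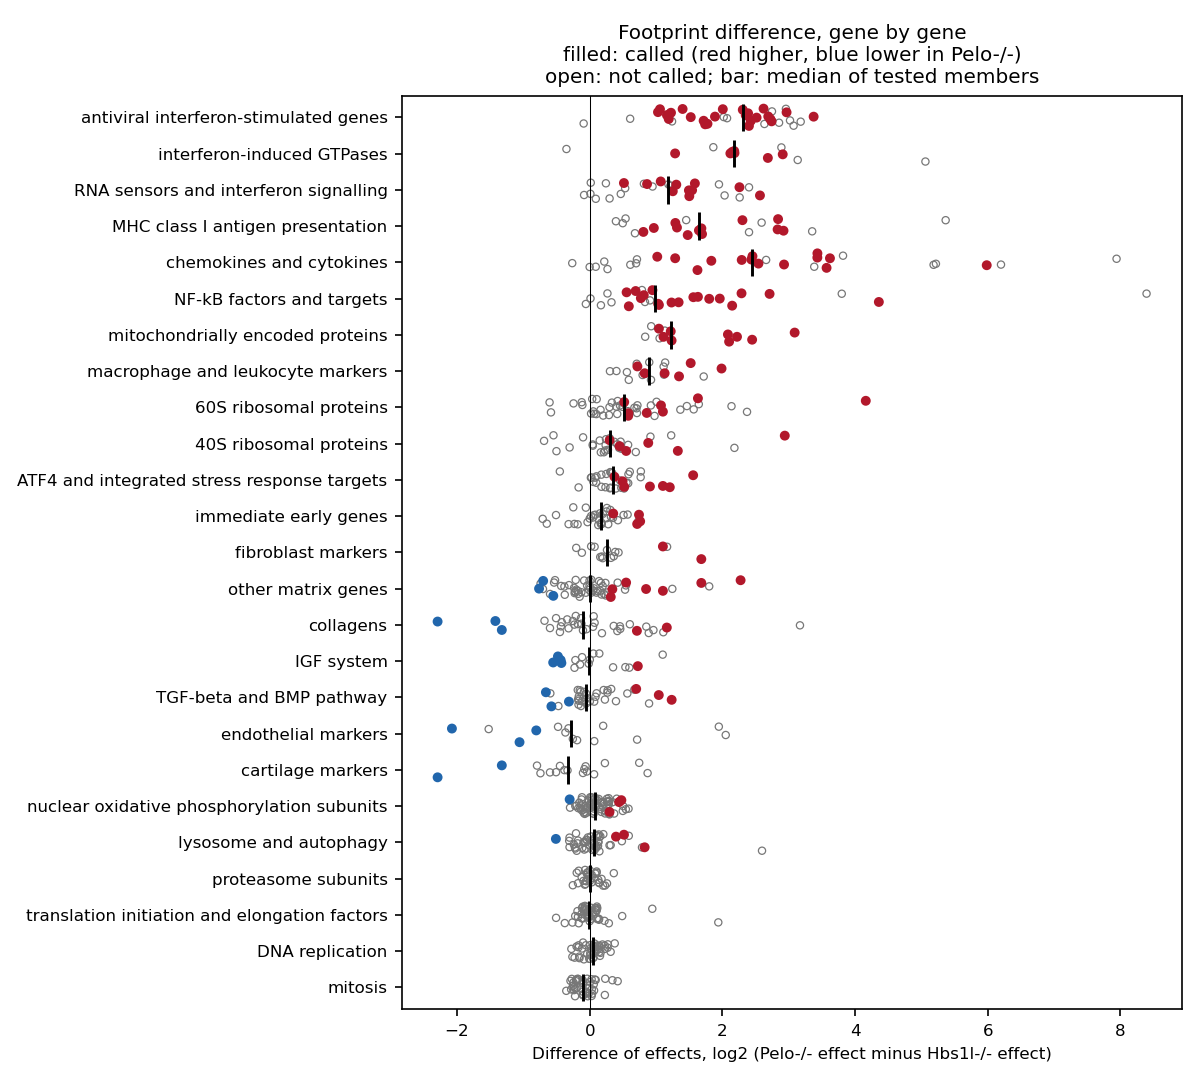
Difference of effects on the log2 scale (horizontal axis) for each tested member of 25 gene lists (rows), filled where called. Called members of the immune lists and of the mitochondrially encoded list all lie to the right of 0, called endothelial and cartilage members lie to the left, and the mitosis, DNA replication, proteasome and translation factor rows have no called member.

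Called genes whose separate effects were also called, in opposite directions, numbered 24. Besides mt-Co1, mt-Co3, mt-Atp6 and mt-Nd4l, those that rose in Pelo-/- and fell in Hbs1l-/- included Mylk, the myosin light chain kinase gene (0.57 and -0.35), the metallothionein gene Mt1 (0.35 and -0.57) and Clu, which encodes clusterin (0.47 and -0.50). Those that fell in Pelo-/- and rose in Hbs1l-/- were Tro (-0.24 and 0.47), Slc5a3 (-0.42 and 0.26), Cplane1 (-0.23 and 0.32), Herc1 (-0.22 and 0.19), Tpp2 (-0.19 and 0.19) and Smarcad1 (-0.16 and 0.18), with changes of less than 0.5 each. These genes were picked out after the values were seen.

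Several groups had no call for the difference. No gene of 43 for DNA replication and none of 43 for mitosis was called, although their medians rose by 0.58 and 0.61 in Pelo-/- and by 0.52 and 0.68 in Hbs1l-/-, with 36 and 41 members called up in Pelo-/-. None of 45 translation factors, 22 aminoacyl-tRNA synthetases, 31 proteasome subunits or 18 nonsense-mediated decay factors was called either. The numbers that rose were 17, 14, 1 and 9 in Pelo-/- and 14, 14, 1 and 9 in Hbs1l-/-. Those that fell were 3, 1, 1 and 0 in Pelo-/- and 1, 0, 2 and 0 in Hbs1l-/-. Of all tested genes 23.9% rose and 22.3% fell in Pelo-/-, and 17.3% rose and 16.5% fell in Hbs1l-/-. A gene with no call may still differ by an amount these libraries cannot resolve, and alternatives called a few. With the control culture term 2 translation factors, 1 proteasome subunit, 1 nonsense-mediated decay factor and 1 mitosis gene were lower. Compared directly, the mutants had 3 translation factors higher and 2 lower, 1 proteasome subunit higher and 2 lower, and 1 synthetase lower. In that setting 1 decay factor and 2 mitosis genes were higher and 6 mitosis genes were lower. Over all 12479 genes tested in it, 1189 were higher and 761 lower. With the control culture term 589 and 476 of 12526 genes were. Skeletal muscle markers summed to 63.4 to 112 CPM in Pelo-/- and 46.3 to 77.9 CPM in Hbs1l-/- against 224 to 299 CPM in control libraries. With edgeR and with DESeq2 0 of 19 were called for the difference, but 18 had a positive value, with a median of 0.63, and 3 were called higher without the libraries that carry Y-linked footprints (1 Pelo-/- library left). In RNA 15 of 18 were higher in Pelo-/- than in Hbs1l-/-, against 18.4% of all genes.

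The length of the coding sequence differed between the genes called in each direction. In the Gencode M21 annotation the longest coding sequence of a gene had a median of 2610 nt among those called lower, 1150 nt among those called higher and 1425 nt among all tested genes, 99.9% of which had a length. Of the genes called lower 43.3% reached 3000 nt, against 8.56% of those called higher and 14.9% of tested genes. The median was 1160 nt for the 326 called higher that are in no immune, macrophage or ribosomal protein list. Sorted by length, the share called lower went from 0 of 210 genes under 300 nt to 9.29% of the 592 genes of 5000 nt or more, and the share called higher from 8.1% to 1.86%. The length classes were chosen after the data were seen.

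Library by library, the level of genes of at least 5 CPM followed length in Hbs1l-/- more than in Pelo-/-, with no test made. Under 300 nt the median level relative to the controls on the log2 scale was -0.28 to -0.29 in the 3 Hbs1l-/- libraries and -0.03 to -0.11 in the 3 Pelo-/- libraries. At 5000 nt or more it was 0.12 to 0.16 in Hbs1l-/- and -0.03 to -0.02 in Pelo-/-, while control libraries stayed between -0.02 and 0.02 in every class. The median difference of effects accordingly went from 0.26 to -0.15. In RNA the median difference between Pelo-/- and Hbs1l-/- went the opposite way, from -0.24 to 0.36.

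**Figure D5:**
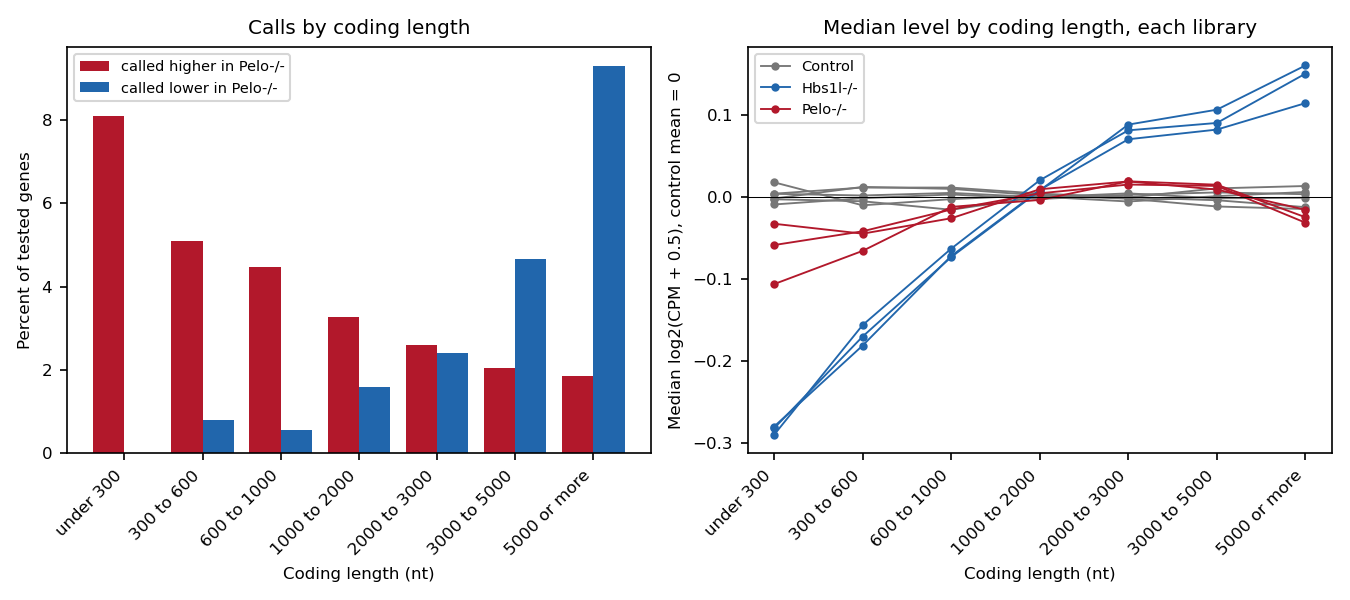
Left, percent of tested genes called higher (red) or lower (blue) in Pelo-/- by class of coding length in nt. Right, median log2(CPM + 0.5) relative to the control mean for genes of at least 5 CPM in each class, 1 line for each library: the 3 Hbs1l-/- lines climb from -0.28 or below to 0.12 or above, whereas Pelo-/- and control lines stay within 0.11 of 0.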

How the data were processed

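Footprint libraries of 12 MEF samples and RNA libraries of 8 were analysed. The deposited footprint tables hold counts per gene, made by the authors from clipped reads after removal of ribosomal, small nucleolar and transfer RNA, aligned to mm10 and counted on coding sequences (Bowtie2 2.2.3, HISAT2 2.1.0 and featureCounts in the submitters' processing notes). The deposited RNA tables hold estimated counts per transcript from kallisto 0.42.4, which were summed per gene and rounded. Symbols came from the RNA files for all 22438 genes.

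Counts were fitted with edgeR 4.0.16 in R 4.3.3 (filterByExpr, TMM, quasi-likelihood F test on 4 group means). This fit takes every control library as a separate unit, although same-numbered controls were counted as 1 culture. The printed SE and adjusted p rest on it. Histone genes were dropped, as the study did. The difference of effects was 1 contrast, with Benjamini-Hochberg adjustment over 12526 genes at 0.05. CPM use TMM-scaled library sizes, and SE are the log2 difference over the square root of F. The fit was tested on simulated data with all libraries drawn independently. That leaves out the control cultures shared by the pools, so it does not check the printed adjusted p in this respect. Alternatives were DESeq2 1.42.0, RLE factors, no filter, thinned libraries, histone genes kept, blocks, left-out libraries and the mutants compared without controls. Replicates are cultures of separate embryos.

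Named genes are the 2 targets, the 12 largest differences each way with at least 5 CPM and no overlap, up to 4 called members of a list in each direction, and called neighbours and substrain genes. Further members of the macrophage, ATF4 and chemokine lists were named after their values were seen. The comparison and the gene lists were chosen with earlier results of these data known.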

Additional observations from a re-analysis of the deposited data

Results flagged for a closer look

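The difference between the effects of the 2 mutations, tested as an interaction, was called for 695 genes. In 24 of them both separate effects were called and ran in opposite directions. The targeted genes differed by -3.72 (Pelo) and 3.78 (Hbs1l) on the log2 scale.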

How the results depend on the processing

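Of 195 called named genes, 71 kept the call in all 24 alternatives, and none changed sign in any of them. The 695 genes became 1065 with a term for the control culture and 1950 (1189 higher, 761 lower) with the mutants compared directly, which kept 688. DESeq2 gave 858. The replicate number as a block gave 947 genes and kept 689, but the numbers did not pair mutants with controls. The 263 genes called lower became 156 after thinning, 407 with the replicate block and 476 with the culture term. Leaving out 1 library gave 384 to 735 genes, 273 to 464 higher and 104 to 271 lower. Without control replicate 1, 2 or 3 in both pools, 196, 389 and 345 genes were called, 152, 264 and 244 higher and 44, 125 and 101 lower, with 2 cultures left. Leaving out 1 RNA library gave 2311 to 5699 genes in place of 5354, and the 2 lowest counts, 2311 and 2734, came with 1 Pelo-/- library left, assumed to vary like the others. Other causes were not tested. The alternative without Y-linked footprints was chosen after seeing the data and leaves 1 Pelo-/- library, so it does not separate sex from the loss of libraries; 396 of the 695 calls were kept. The shallowest library held 5922807 counts, which limits calls for genes of low level.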
